A study of Homo sapiens with 4 samples.

Results

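The genes described here are 35 genes of DNA repair and of the checkpoint that answers DNA damage, among them the genes of the Fanconi anaemia pathway. They were chosen by name, with earlier results of these data known, as the spots whose RefSeq accession on the array belongs to a listed symbol. All 35 were found among 17721 genes with a symbol, on 51 of 41000 probes. By role they were 11 genes of homologous recombination, 10 Fanconi genes, 6 genes of mismatch repair, 6 genes of damage signalling and the MRN complex, and 2 RecQ helicases. The cells were OVSAYO, a human line from a clear cell carcinoma of the ovary. NS-si cells received the Silencer negative control siRNA (called scramble siRNA in the sample labels), and Sp1-si cells received a pool of siRNAs against the transcription factor Sp1 (given as an SMRT pool), both by lipofection. After 40 h of culture by the sample labels (a figure legend of the study gives a shorter time) the medium was replaced, and the NS-si → CoCl2 and Sp1-si → CoCl2 cells were exposed to 0.5 mM CoCl2, a salt that stabilises hypoxia-inducible factors and so mimics low oxygen, for 4 h. The NS-si and Sp1-si cells had no CoCl2. Total RNA of each condition was labelled with Cy3 and hybridised to 1 array, so the 4 conditions stand for 1 cell line, 1 siRNA pool and 1 control siRNA.

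These genes act on different kinds of damage. Homologous recombination mends breaks of both DNA strands by copying an intact sister molecule: BRCA1 with BARD1 opens the way, PALB2 brings in BRCA2, and RAD51C, RAD51D, XRCC2 and XRCC3 help the search for the matching strand. The Fanconi pathway unhooks crosslinks between the strands: a core complex with FANCA, FANCC, FANCE, FANCF, FANCG, FANCL and FANCM attaches ubiquitin to the FANCD2 and FANCI pair at the stalled fork. Mismatch repair removes copying errors, with MSH proteins recognising the mismatch, MLH and PMS proteins cutting, and the EXO1 nuclease removing the strand. ATM and ATR signal damage through CHEK2 and CHEK1, and RAD50 and NBN belong to the MRN complex, which holds broken ends together. Many of these genes are expressed most in cells that are copying their DNA, and loss of BRCA1 or BRCA2 is a known route to ovarian cancer. Sp1 binds GC-rich boxes, which are common in promoters that lack a TATA box.

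Each array held 43376 non-control spots, of which 76.3% to 79.6% were well above background, and no spot was saturated. Processed signals were divided by the 75th percentile signal of their array, which was 1143 for NS-si, 1100 for Sp1-si, 977 for NS-si → CoCl2 and 1287 for Sp1-si → CoCl2, and ratios are given on the log2 scale. The signals and spot values listed for genes are processed signals before this division. Folds and log2 ratios were taken after it unless no scaling is stated, so listed signals do not divide to the ratios given. A member was called higher or lower at a log2 ratio of at least 1 in size, a fold of 2. With 1 array per condition no ratio has a replicate check, no p-value was computed, and the array and the condition cannot be told apart. The error given is therefore the SD of the log2 ratio between spots of the same probe, taken from the member's own spots for 8 members with 10 spots and from 10-spot probes of like signal for 27 members with 1 spot. It was near 0.03 for bright probes and 0.29 to 0.36 for the dimmest, and it does not hold the spread between cultures. In RNA of whole cultures, fewer cells expressing a gene and less of its RNA per cell cannot be told apart. SP1 itself was lower in Sp1-si cells, with log2 ratios of -3.77 without CoCl2 and -3.87 with it, and VEGFA, a hypoxia target, was higher after CoCl2, at 2.34 (NS-si) and 2.86 (Sp1-si) on the log2 scale. All 8 markers of clear cell ovarian carcinoma and epithelium were well above background on the 4 arrays, although NAPSA and CDH1 were lower in Sp1-si cells (-2.33 and -1.55 without CoCl2), while the leukocyte marker PTPRC and the endothelial markers PECAM1 and CDH5 were not well above background on any.

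The first question was how the repair genes stood in cells with little Sp1. In Sp1-si against NS-si cells without CoCl2, members moved both ways: 5 of 35 were called lower (BRCA2, RAD51D, FANCD2, FANCI and BRIP1) and 3 were called higher (FANCC, FANCE and MSH6). Over all 15186 genes measured, 6.18% were called lower and 6.22% higher. The median log2 ratio of the members was -0.13, beside -0.01 for all genes, and 20 of 35 members lay below 0. At a fold of 1.5, 10 members were lower and 6 higher, against 14.1% and 13.9% of all genes. By role, the median was -0.14 for homologous recombination, 0.22 for the Fanconi genes, 0.27 for mismatch repair, -0.20 for damage signalling and MRN, and -0.53 for the RecQ helicases.

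**Figure D1:**
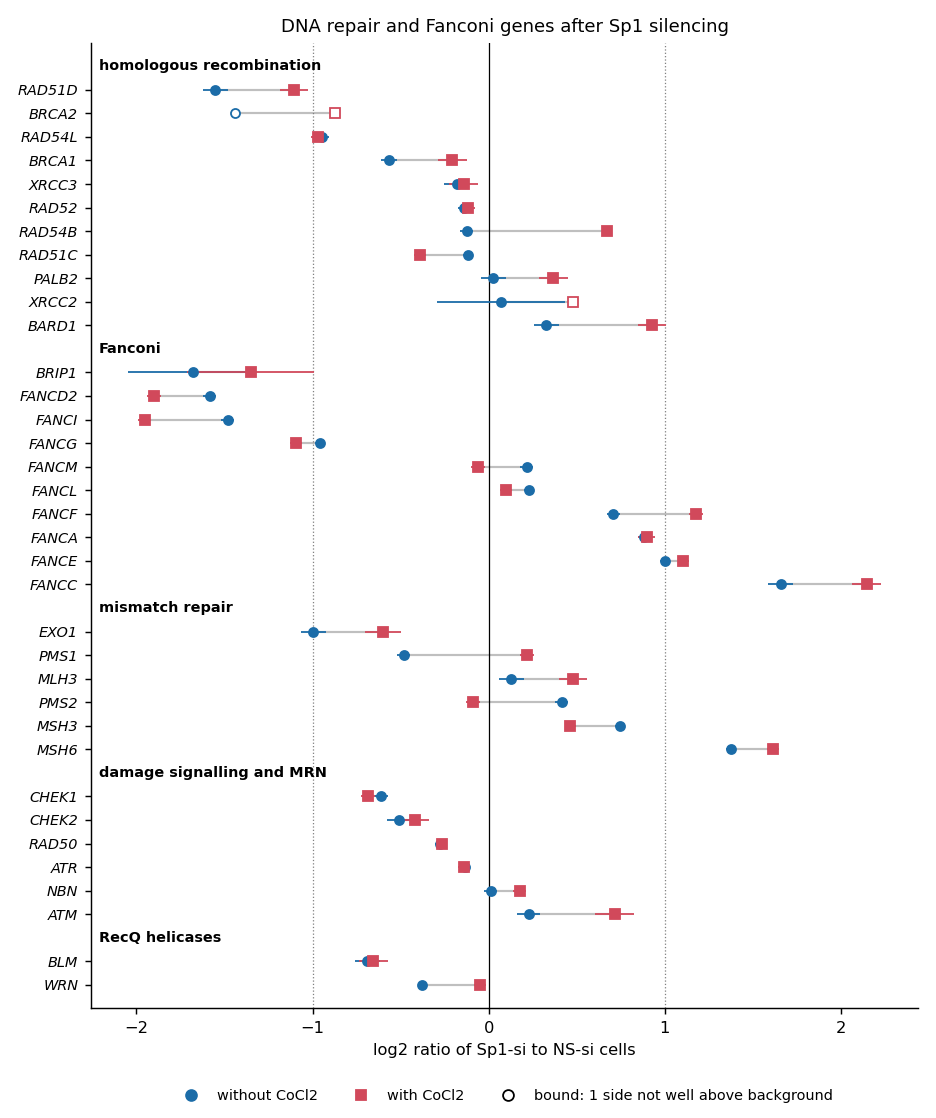
Log2 ratio of Sp1-si to NS-si cells for each of the 35 members, in cells without CoCl2 (blue circles) and with CoCl2 (red squares), grouped by role and ordered by the ratio without CoCl2. Horizontal bars are 1 spot SD, and dotted lines mark a log2 ratio of 1 in either direction. Open symbols are ratios for which 1 of the arrays was not well above background. FANCD2, FANCI, BRIP1 and RAD51D lie left of the left line with and without CoCl2, and FANCC, FANCE and MSH6 right of the right line.

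The Fanconi genes spread most widely, from -1.68 to 1.66. FANCD2, which becomes ubiquitinated and marks the crosslink, had processed signals of 1463 without and 1096 with CoCl2 in the NS-si cells, against 470 without and 387 with CoCl2 in the Sp1-si cells. Both Sp1-si arrays were lower than both NS-si arrays, with a log2 ratio of -1.58 (spot SD 0.04) without CoCl2 and of -1.90 (spot SD 0.04), or 3.73-fold, with it. Its other 2 probes gave -1.41 and -1.45 without CoCl2 and -1.58 and at most -1.48 with it, the last a bound because the Sp1-si → CoCl2 signal was not well above background. FANCI, the partner of FANCD2 in a clamp around DNA, had signals of 1236 (NS-si), 426 (Sp1-si), 989 (NS-si → CoCl2) and 336 (Sp1-si → CoCl2), an order kept for the lists of 4 signals that follow. It was 2.79-fold lower in Sp1-si cells without CoCl2 (-1.48, spot SD 0.04) and 3.87-fold lower with it (-1.95, spot SD 0.04). Its other 2 probes were also lower, at -1.03 and -1.50 without CoCl2. So both members of the ubiquitinated pair were lower on both Sp1-si arrays, on all 6 of their probes.

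BRIP1, a helicase that binds BRCA1 and acts after the crosslink is cut, was dim, with signals of 27.0, 8.11, 27.8 and 14.4, all well above background. It was lower on both Sp1-si arrays, with log2 ratios of -1.68 (spot SD 0.36) without CoCl2 and -1.35 (spot SD 0.36) with it. With another background correction (normexp, a model-based subtraction, with an offset of 50) these became -0.31 and -0.76, so the size for this dim probe rests on the background step. FANCG, a member of the core complex, was bright, with signals of 2581, 1278, 2305 and 1422. Its log2 ratio of -0.96 (spot SD 0.03) in Sp1-si cells without CoCl2 lay just short of a call.

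The other listed genes of the core complex were not lower. FANCC, which bridges parts of that complex, had signals of 131 without and 73.2 with CoCl2 in the NS-si cells, against 398 without and 427 with CoCl2 in the Sp1-si cells, and both Sp1-si arrays exceeded both NS-si arrays. It was 3.16-fold higher without CoCl2 (log2 ratio 1.66, spot SD 0.07), the highest ratio of the members. FANCE, which contacts FANCD2, had signals of 1939, 3739, 962 and 2729 and was called higher by a narrow margin (log2 ratio 1.003, spot SD 0.03). Under 3 alternatives the FANCE ratio lay below the call, at 0.94 at the lowest. FANCF, an adaptor of the complex, had signals of 766, 1205, 201 and 600 and a log2 ratio of 0.71 (spot SD 0.04), and FANCA a log2 ratio of 0.88 (spot SD 0.04) with signals of 354, 627, 236 and 578. FANCL, the ubiquitin ligase, and FANCM, the translocase that anchors the complex, stood at 0.23 and 0.22. Of the 7 core complex genes on this list, 6 thus had ratios above 0 on the probe used, and FANCG alone a ratio below 0. The other FANCM probes gave 0.06 and -0.22. FANCD2, FANCI and BRIP1, the rest of the Fanconi group, were all called lower. This contrast holds for the grouping used here. Among genes placed under homologous recombination, BRCA2 and RAD51D were called lower, and BRCA1, PALB2, RAD51C and XRCC2 were not called. FANCB, a core complex gene outside the list, had a log2 ratio of -0.58 without CoCl2 and of -1.98 with it.

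**Figure D2:**
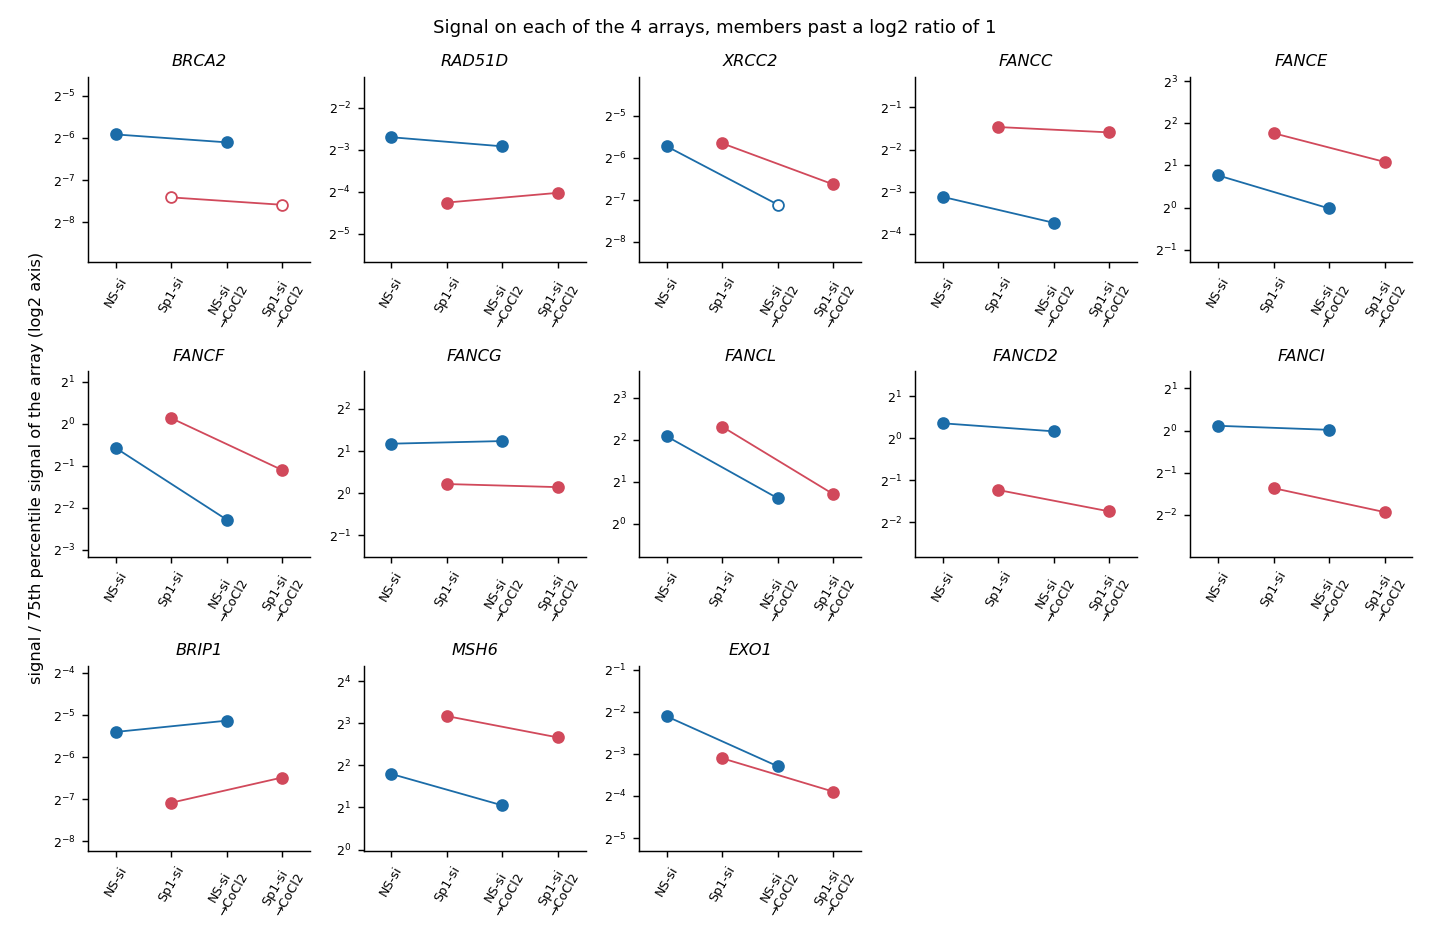
Signal on each array divided by the 75th percentile signal of that array, on a log2 axis, for the 13 members with a log2 ratio of at least 1 in size in any comparison. Blue points are NS-si and red points Sp1-si cells, lines join cells without and with CoCl2, open points were not well above background, and every panel spans the same range; for FANCD2 and FANCI both red points lie below both blue points, and for FANCC and MSH6 above.

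Among the homologous recombination genes, RAD51D and BRCA2 were called lower. RAD51D, which works in a complex with XRCC2, had signals of 176, 57.6, 129 and 79.2 and was 2.93-fold lower in Sp1-si cells without CoCl2 (log2 ratio -1.55, spot SD 0.07). The other 2 RAD51D probes gave -1.66 and -1.44. BRCA2 was close to background throughout: its mean signal was 18.9 in NS-si and 14.2 in NS-si → CoCl2 cells, where all spots kept were well above background, and 6.46 and 6.69 in Sp1-si and Sp1-si → CoCl2 cells, where 1 of 9 and 0 of 10 were. Spots ranged from 15.7 to 21.0 in NS-si cells and from 4.35 to 7.56 in Sp1-si cells, with no overlap, after 3 outlier spots of the former and 1 of the latter were left out. BRCA2 was thus at least 2.71-fold lower without CoCl2 (a log2 ratio of at most -1.44), which became -0.19 under the normexp correction.

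BRCA1, measured by 10 spots on every array, was lower by less. Its signals were 641 without and 426 with CoCl2 in the NS-si cells, against 416 without and 487 with CoCl2 in the Sp1-si cells. The BRCA1 log2 ratio for Sp1 silencing was -0.57 (spot SD 0.04) without CoCl2 and -0.21 (spot SD 0.08) with it. Without scaling of the arrays, BRCA1 had a ratio of 0.19 with CoCl2. In untreated cells its spots ran from 593 to 684 in NS-si and from 393 to 449 in Sp1-si cells. RAD54L, a motor protein that helps in the search for the sister strand, had a log2 ratio of -0.94 (spot SD 0.04) with signals of 936 and 468. The remaining 7 genes of this group, BARD1, PALB2, RAD51C, RAD52, RAD54B, XRCC2 and XRCC3, lay between -0.18 and 0.33. No gene of homologous recombination was called higher, of 11, beside 6.22% of all genes.

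In mismatch repair, MSH6 stood apart. MSH6, which recognises single mispaired bases, had signals of 3968 without and 2022 with CoCl2 in the NS-si cells, against 9903 without and 8158 with CoCl2 in the Sp1-si cells, and was 2.59-fold higher in Sp1-si cells without CoCl2 (log2 ratio 1.37, spot SD 0.03). MSH3, which recognises larger loops, had a ratio of 0.74 (spot SD 0.03), and its other probe also gave 0.74. EXO1 went the other way, with 10 spots on each array and signals of 264, 128, 99.4 and 86.3, and its log2 ratio of -0.995 (spot SD 0.07) fell just short of the call. PMS2 stood at 0.41, MLH3 at 0.13 and PMS1 at -0.48.

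No gene of damage signalling or the MRN complex, and neither RecQ helicase, was called in Sp1-si cells without CoCl2, a count of 0 among 8 genes where 6.18% of all genes were called lower and 6.22% higher. CHEK1, the kinase that halts the cycle at stalled forks, was at -0.61 (spot SD 0.04), its signal being 678 where Sp1 was silenced and 1075 where it was not. CHEK2, its counterpart after strand breaks, was at -0.51 (spot SD 0.07), and BLM, a helicase that dissolves joined molecules, at -0.69 (spot SD 0.07). WRN, RAD50, ATR, NBN and ATM lay between -0.38 and 0.23. The sizes of 4 of 35 ratios, those of PALB2, XRCC2, MLH3 and NBN, were within 2 spot SDs.

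Genes of cell division moved in the same comparison. Of 16 mitotic genes, 10 were called lower and 0 higher, with a median log2 ratio of -1.13 and TOP2A lowest at -2.22, and of 21 replication and G1/S genes 5 were called lower and 0 higher, with a median of -0.52. Under CoCl2, the median for Sp1 silencing was -0.63 for the mitotic and -0.24 for the replication genes, with 4 and 3 called lower. Their part in the ratios of the repair genes was not tested.

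Promoters were then read for the box that Sp1 binds. RefSeq promoters on GRCh38.p14, from 250 bases before to 50 after each listed start, were at hand for 31 of 35 members, all but RAD54B, WRN, NBN and FANCI. The letters GGGCGG, searched on both strands, occurred in at least 1 listed promoter of 23 of 31 members and of 48.3% of 27305 genes. CCAAT occurred in 15 members and 39.7% of genes, and ACGTG, the core of the hypoxia response element, in 11 members and 24.9% of genes. ACGTG on opposite strands overlaps wherever CACGTG occurs, and both matches were counted. E2F-type letters, counted as 1 class of TTTGGCGC, TTTGCCGC, TTTCGCGC and TTTCCCGC, occurred in 8 members (XRCC2, FANCA, FANCC, FANCD2, MSH3, MSH6, PMS2 and EXO1), which is 25.8% of 31, and in 3.99% of all genes. In the 250 bases before the start alone, they occurred in 4 members and 3.4% of genes. A match describes letters and is not evidence of binding.

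The ratios of members with and without a GC box overlapped. The 23 members with GGGCGG had a median log2 ratio of -0.28 without CoCl2, from -1.68 to 1.66, with 3 called lower and 3 higher. The 8 without it had a median of 0.08, from -1.44 to 0.71, with 1 called lower and 0 higher. Of all genes measured, 6.18% were called lower and 6.22% higher, and these were not split by the box. The 250 bases before the outermost listed start are shown for the 3 members with the lowest and the 3 with the highest ratio, in lower case with GGGCGG on either strand in capitals (CCGCCC is its reverse complement), read 5′ to 3′ along the gene. The 3 lowest members follow first, with 1 box for BRIP1 and 0 for FANCD2 and RAD51D.
BRIP1, chr17:61863529-61863778, minus strand: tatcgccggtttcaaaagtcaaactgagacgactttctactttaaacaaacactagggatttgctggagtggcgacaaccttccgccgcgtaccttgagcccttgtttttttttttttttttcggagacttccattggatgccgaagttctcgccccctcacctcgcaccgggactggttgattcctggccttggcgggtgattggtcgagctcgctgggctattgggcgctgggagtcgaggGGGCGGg
FANCD2, chr3:10026187-10026436, plus strand: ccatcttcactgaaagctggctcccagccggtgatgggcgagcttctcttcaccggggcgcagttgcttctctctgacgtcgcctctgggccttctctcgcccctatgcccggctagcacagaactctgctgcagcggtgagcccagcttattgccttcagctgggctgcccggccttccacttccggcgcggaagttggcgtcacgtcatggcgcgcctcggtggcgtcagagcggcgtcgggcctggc
RAD51D, chr17:35119861-35120110, minus strand: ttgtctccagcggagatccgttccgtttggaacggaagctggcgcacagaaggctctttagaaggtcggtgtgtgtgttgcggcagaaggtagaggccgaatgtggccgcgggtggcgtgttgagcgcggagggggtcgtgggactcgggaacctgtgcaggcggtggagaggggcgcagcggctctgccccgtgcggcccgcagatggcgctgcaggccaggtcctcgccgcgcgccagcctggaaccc
The 3 highest members held 3 boxes in FANCC, of which 2 overlap in CCGCCCCGCCC, and 5 each in MSH6 and FANCE.
FANCC, chr9:95317710-95317959, minus strand: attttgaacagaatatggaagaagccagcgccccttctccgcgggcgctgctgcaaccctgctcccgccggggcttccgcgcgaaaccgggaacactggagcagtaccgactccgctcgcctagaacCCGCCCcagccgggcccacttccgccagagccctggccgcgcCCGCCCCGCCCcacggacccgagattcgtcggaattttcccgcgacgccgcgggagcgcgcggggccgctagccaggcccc
MSH6, chr2:47782895-47783144, plus strand: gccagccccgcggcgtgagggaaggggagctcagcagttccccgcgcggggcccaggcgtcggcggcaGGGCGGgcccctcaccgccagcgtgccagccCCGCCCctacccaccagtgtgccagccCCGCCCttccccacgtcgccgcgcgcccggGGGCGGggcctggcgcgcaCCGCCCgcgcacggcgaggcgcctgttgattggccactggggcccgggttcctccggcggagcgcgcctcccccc
FANCE, chr6:35452088-35452337, plus strand: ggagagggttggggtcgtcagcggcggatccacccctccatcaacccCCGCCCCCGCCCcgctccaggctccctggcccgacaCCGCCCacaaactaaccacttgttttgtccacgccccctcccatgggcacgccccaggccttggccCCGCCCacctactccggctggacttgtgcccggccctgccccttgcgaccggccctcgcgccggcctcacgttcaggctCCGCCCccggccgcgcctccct
FANCD2 and RAD51D each had 1 box within the 50 bases after the start shown, and RAD51D up to 3 in another listed promoter. The contrast between these sequences thus depends on the window. The GC content of the 6 windows ran from 54% in BRIP1 to 81.2% in MSH6.

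The same comparison was made between the cells exposed to CoCl2, which are separate arrays. In Sp1-si → CoCl2 against NS-si → CoCl2 cells, 5 of 35 members were called lower (RAD51D, FANCG, FANCD2, FANCI and BRIP1) and 4 higher (FANCC, FANCE, FANCF and MSH6), beside 8.08% and 7.17% of 15042 genes. Of the 35, 20 lay below 0, beside 52.2% of all genes. The members' median was -0.09, beside -0.03 for all genes, and without scaling or with median scaling of the arrays it was above 0, at 0.31 and 0.05. Members called in the same direction with and without CoCl2 numbered 4 lower (RAD51D, FANCD2, FANCI and BRIP1) and 3 higher (FANCC, FANCE and MSH6) of 35. Over 14838 genes the same held for 4.12% and 4.29%. The sign of the ratio was the same with and without CoCl2 in 31 of 35 members, the exceptions being RAD54B, FANCM, PMS1 and PMS2.

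FANCC again had the highest ratio, 4.43-fold higher in Sp1-si → CoCl2 than in NS-si → CoCl2 cells (log2 ratio 2.15, spot SD 0.08), and MSH6 was 3.06-fold higher (1.61, spot SD 0.03). FANCE was 2.15-fold higher (1.11, spot SD 0.03) and FANCF 2.26-fold higher (1.18, spot SD 0.04), the latter being 0.98 with the normexp correction. FANCG, just short of a call without CoCl2, was 2.14-fold lower with it (-1.09, spot SD 0.03), but only -0.70 when the arrays were not scaled. The RAD51D ratio was -1.11 (spot SD 0.08) and dropped below the call under 5 of 9 alternatives, to -0.71 at the least. BRCA2 could be bounded at a log2 ratio of at most -0.87.

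Some ratios that were small without CoCl2 were larger with it. BARD1, the partner of BRCA1 in its ubiquitin ligase, had signals of 288 without and 182 with CoCl2 in the NS-si cells, against 347 without and 457 with CoCl2 in the Sp1-si cells, and its ratio for Sp1 silencing was 0.33 (spot SD 0.07) without and 0.93 (spot SD 0.08) with CoCl2. RAD54B, a relative of RAD54L, had 10-spot means of 2911, 2572, 2461 and 5160. Its Sp1-si → CoCl2 spots ran from 4875 to 5406, above all its spots on the other 3 arrays, of which the highest was 3062. Its ratio was -0.12 (spot SD 0.04) without and 0.67 (spot SD 0.03) with CoCl2. ATM, the kinase that senses breaks, had 10-spot means of 74.2, 83.6, 55.2 and 119 and ratios of 0.23 (spot SD 0.06) and 0.72 (spot SD 0.11). Its second probe, dimmer, gave -0.01 and 0.08. For FANCM the probes also disagreed: the brightest gave -0.06 under CoCl2 and another 0.10, but the dimmest gave -1.75.

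The second question was how the repair genes stood after 4 h of CoCl2. In NS-si → CoCl2 against NS-si cells most members were lower: 31 of 35 had a log2 ratio below 0, against 49.4% of 15115 genes, with a median of -0.43 beside 0.00 for all genes. Members called lower numbered 4 of 35 (XRCC2, FANCF, FANCL and EXO1) beside 3.54% of all genes, and 0 of 35 were called higher beside 4.22%. At a fold of 1.5, 16 members were lower and 0 higher, against 10.2% and 11.2% of all genes. Most of these ratios were under a fold of 2. Genes of cell division were also lower in this comparison: 15 of 16 mitotic genes lay below 0, with a median of -0.66 and 10 lower at a fold of 1.5, and 18 of 21 replication and G1/S genes, with a median of -0.40 and 9 lower. Their part in the members' ratios was not tested. The median lay below that of all genes by 0.37 to 0.50 under every alternative run, and below 0 in each of the 5 role groups under all of them.

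**Figure D3:**
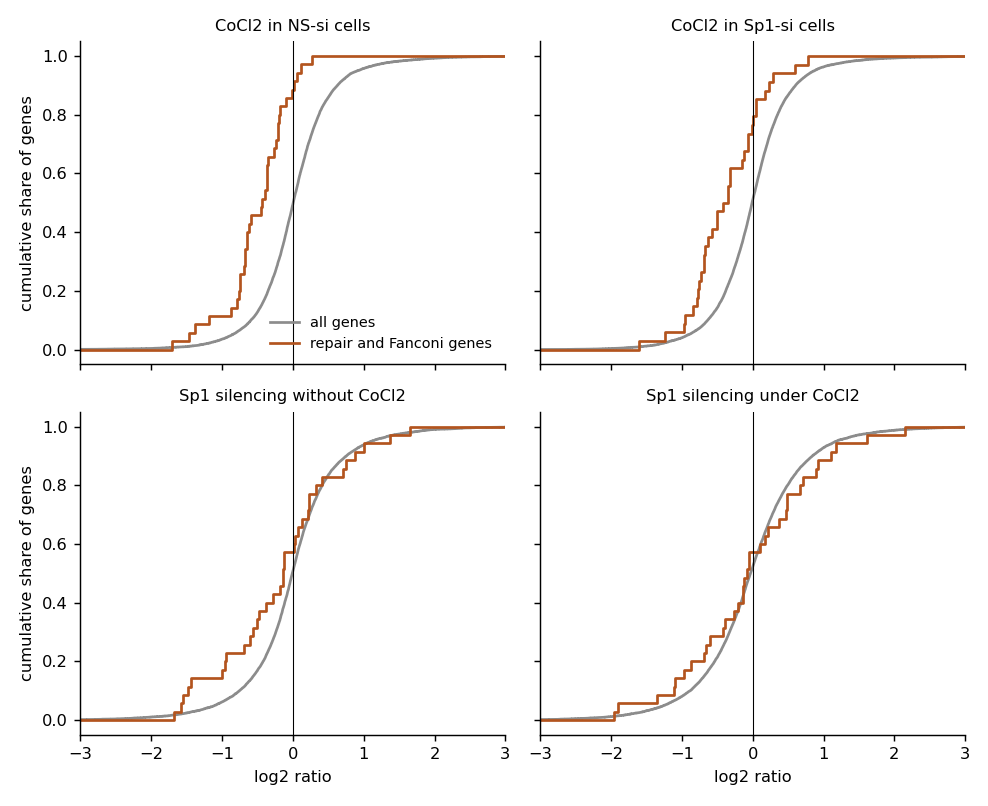
Cumulative share of genes (vertical axis) at or below a given log2 ratio (horizontal axis) for the members (orange) and all genes measured (grey) in the 4 comparisons. After CoCl2 the orange line lies left of the grey line over most of its length (medians -0.43 for NS-si and -0.39 for Sp1-si cells), and after Sp1 silencing it crosses the grey line, with members at both ends.

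FANCF and FANCL had the lowest ratios among members well above background on both arrays. After scaling, FANCF was 3.26-fold lower with CoCl2 than without in NS-si cells (-1.70 on the log2 scale, spot SD 0.04). In Sp1-si cells it was 2.35-fold lower (-1.23, spot SD 0.04). Its signals before scaling went from 766 to 201 in NS-si and from 1205 to 600 in Sp1-si cells. FANCL had signals of 4812 without and 1485 with CoCl2 in NS-si cells, against 5429 without and 2094 with CoCl2 in Sp1-si cells. After scaling it was 2.77-fold lower in NS-si (-1.47, spot SD 0.03) and 3.04-fold lower in Sp1-si cells (-1.60, spot SD 0.03). Both CoCl2 arrays were lower than both untreated arrays for each gene, and these calls held under all 9 alternatives. In the core complex the next were FANCE at -0.79 and -0.68, FANCC at -0.62 and -0.13, FANCM at -0.45 and -0.72, and FANCA at -0.36 and -0.34, the NS-si value first. FANCG, by contrast, was at 0.06 and -0.07.

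In NS-si cells EXO1 was 2.28-fold lower after CoCl2 (-1.19 on the log2 scale, spot SD 0.10), and its spots ran from 243 to 276 in NS-si and from 85.8 to 110 in NS-si → CoCl2 cells. The normexp correction took this ratio to -0.80. All 6 mismatch repair genes were below 0 in NS-si cells, from -1.19 for EXO1 to -0.26 for PMS2, and all 6 in Sp1-si cells, from -0.79 for EXO1 to -0.01 for MLH3. In Sp1-si cells MLH3 and PMS1 (-0.07) were within 2 spot SDs, and the number below 0 was 4 of 6 without scaling and with median scaling and 5 of 6 with quantile normalization and with normexp. XRCC2, of the same complex as RAD51D, was dim, with signals of 21.5, 21.8, 7.05 and 13.0, and the NS-si → CoCl2 value was not well above background. After CoCl2 the XRCC2 ratio was -1.38 (spot SD 0.31), or 2.61-fold lower, in NS-si cells and -0.98 (spot SD 0.29) in Sp1-si cells. The first rests on 1 spot that was not well above background, and the normexp correction gave no ratio for it.

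In the other homologous recombination genes the ratio after CoCl2 in NS-si cells ran from -0.74 for RAD54L to 0.01 for XRCC3. RAD51C stood at -0.68, PALB2 at -0.67, RAD52 at -0.65, BARD1 at -0.43, BRCA1 at -0.36, RAD51D at -0.22, BRCA2 at -0.19 and RAD54B at -0.02. Those of BRCA2, XRCC3 and RAD54B were within 2 spot SDs. Of the signalling genes, ATR was at -0.67, NBN at -0.59, RAD50 at -0.36, CHEK2 at -0.24 and ATM at -0.20, and the RecQ helicases BLM and WRN at -0.88 and -0.65. The 4 members above 0 in NS-si cells were BRIP1 at 0.27 (within 2 spot SDs), CHEK1 at 0.12, FANCG at 0.06 and XRCC3. Before scaling, the CHEK1 signals of NS-si cells were 1075 without and 998 with CoCl2. Those of Sp1-si cells were 678 without and 817 with CoCl2. After scaling, the CHEK1 ratio for CoCl2 was 0.12 (spot SD 0.04) where Sp1 was not silenced. Where Sp1 was silenced it was 0.04 (spot SD 0.04), which lay within 2 spot SDs.

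**Figure D4:**
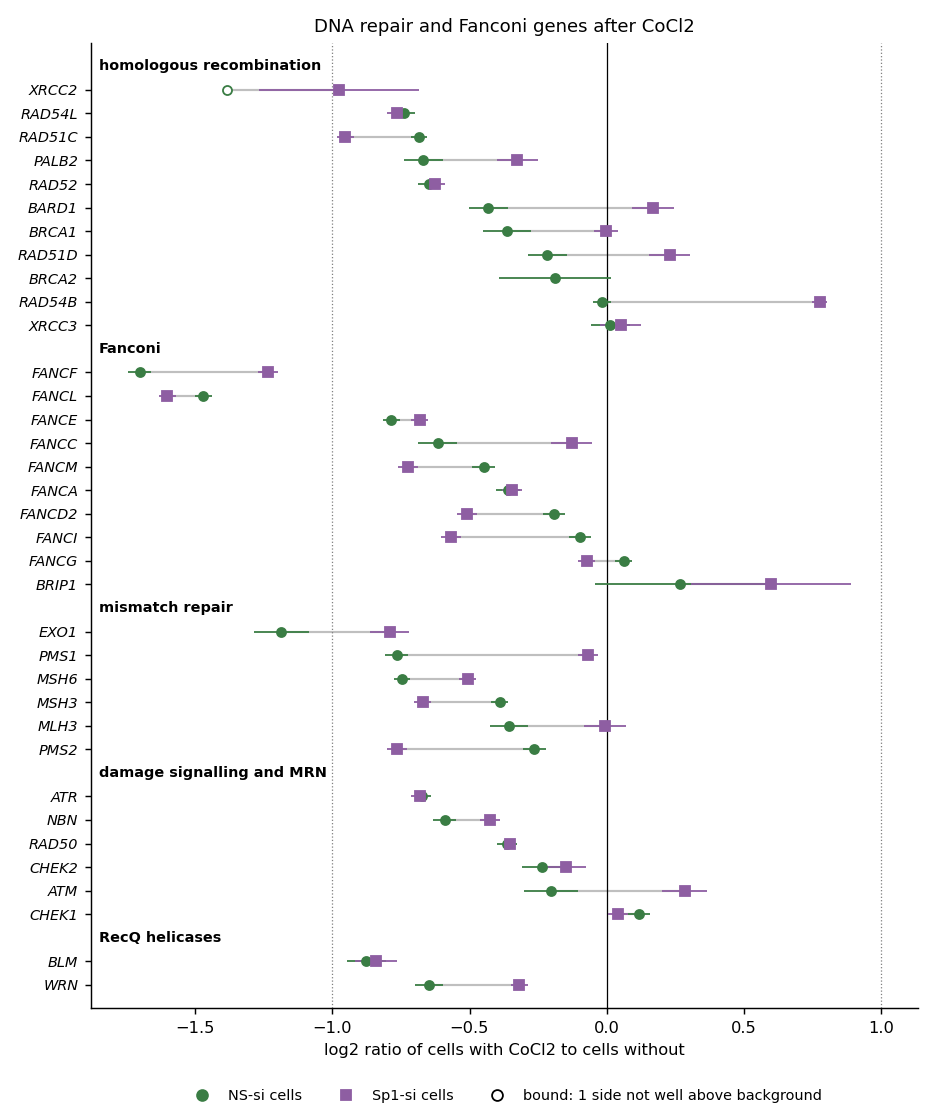
Log2 ratio of cells with CoCl2 to cells without for each member, in NS-si (green circles) and Sp1-si cells (purple squares), grouped by role and ordered by the NS-si ratio. Horizontal bars are 1 spot SD, and BRCA2 has no value in Sp1-si cells. The open circle is XRCC2, whose NS-si → CoCl2 signal was not well above background. Of the green circles, 31 of 35 lie left of 0, and FANCF and FANCL lie left of the dotted line at -1 in both kinds of cells.

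In Sp1-si → CoCl2 against Sp1-si cells, 27 of 34 members had a log2 ratio below 0, against 51% of 14930 genes, with a median of -0.39. BRCA2 had no ratio because neither array was well above background. Members called lower numbered 2 of 34 (FANCF and FANCL) beside 4.04% of all genes, and 0 were called higher beside 3.7%. At a fold of 1.5, 13 were lower and 2 higher, against 11.5% and 10.5%. The medians were -0.16 for homologous recombination, -0.54 for the Fanconi genes and -0.59 for mismatch repair. Without scaling of the arrays the first was 0.06, beside 0.22 for all genes, so that its distance from all genes was -0.16 without and -0.15 with scaling, and over the 9 homologous recombination genes above background on all 4 arrays the median was -0.0011. In these cells the median was -0.29 for the mitotic genes and -0.13 for the replication genes. A ratio below 0 in both kinds of cells, which share no array, was found for 26 of 34 members and for 36.3% of 14696 genes. The highest ratios in Sp1-si cells were those of RAD54B at 0.78 (spot SD 0.03), BRIP1 at 0.60 (spot SD 0.29) and ATM at 0.29 (spot SD 0.08). Those of BRIP1 and ATM changed sign, to -0.22 with normexp for BRIP1 and to -0.20 with the mean over both probes for ATM.

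The third question was whether the ratio after CoCl2 differed between Sp1-si and NS-si cells. The difference of the 2 log2 ratios was available for 33 members and was called in 0 of them in either direction, beside 0.973% of 14283 genes called higher and 2.88% called lower. The median difference was 0.09, beside 0.01 for all genes, and 11 of 33 lay below 0, beside 48.6% of all genes. At a fold of 1.5, 3 members were higher, RAD54B (0.79, spot SD 0.05), PMS1 (0.70, spot SD 0.05) and BARD1 (0.60, spot SD 0.11), and 0 were lower, against 5.43% and 8.13% of all genes. PMS1, of the PMS proteins, had signals of 1212 without and 609 with CoCl2 in NS-si cells. In Sp1-si cells they were 835 without and 934 with CoCl2. After scaling, PMS1 was lower after CoCl2 in NS-si cells (-0.77, spot SD 0.04) and near 0 in Sp1-si cells (-0.07, spot SD 0.04). The lowest differences were those of PMS2 (-0.50), FANCI (-0.47) and FANCD2 (-0.32), each with a spot SD of 0.05. PMS2, whose signals were 1008, 1293, 718 and 891, had 5 probes that did not move alike, since its ratio after CoCl2 in Sp1-si cells ran from -0.89 to 0.01 over them. FANCI and FANCD2 went from -0.10 and -0.19 in NS-si to -0.57 and -0.51 in Sp1-si cells. Of the 33 differences, 10 were within 2 spot SDs. PMS2, FANCD2 and CHEK2 have near-identical copies elsewhere in the genome, and signal from those copies on these probes was not tested.

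Other repair genes, taken from lists of the same pathways, were read in the same way. Of 30 further genes of homologous recombination and the Fanconi pathway, 29 had a ratio for Sp1 silencing without CoCl2, with 5 called lower, 1 higher and a median of -0.10. RAD51AP1, which promotes strand pairing, was lowest at -2.12 and at -2.36 under CoCl2, POLQ, the polymerase of an alternative end joining, was at -1.39, and EME1, a subunit of a nuclease that cuts joined molecules, at -1.29. RMI2, which works with BLM, was higher at 1.09, and at 1.33 under CoCl2. After CoCl2 in NS-si cells, 24 of 29 were below 0, with a median of -0.31, 5 called lower and 1, FANCB of the core complex, higher at 1.37, whose difference of the CoCl2 ratios was -1.40. In Sp1-si cells 22 of 28 were below 0, 1 was called lower and 0 higher.

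Of 6 further mismatch repair genes on the array, 5 were measured and 0 were called in any comparison. The share over all genes was at most 8.08% in either direction. After CoCl2 their median was -0.42 (NS-si) and -0.40 (Sp1-si). Of 19 further damage signalling genes, WEE1, a kinase that holds back entry into mitosis, was called higher after CoCl2 in both kinds of cells (1.07 in NS-si, 1.31 in Sp1-si). In the same list H2AX, the histone variant phosphorylated at breaks, was lower in Sp1-si cells without (-1.14) and with CoCl2 (-1.40), and ABRAXAS1, a BRCA1 partner, was higher (1.28 and 1.35).

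Repair pathways outside the list were also read. After CoCl2, 0 of 10 non-homologous end joining, 18 base excision repair and 17 nucleotide excision repair genes were called in either kind of cells. Over all genes, 3.54% were called lower and 4.22% higher in NS-si cells, and 4.04% and 3.7% in Sp1-si cells. With so few genes, counts of 0 lie near those shares. The medians of these lists were -0.17, -0.21 and -0.24 in NS-si cells, beside -0.43 for the members. In Sp1-si cells they were 0.01, -0.23 and -0.32, beside -0.39 for the members. After Sp1 silencing, 0 nucleotide excision repair genes were called with or without CoCl2. Over all genes, Sp1 silencing gave 6.18% lower and 6.22% higher without CoCl2, and 8.08% and 7.17% with it. In base excision repair the glycosylase NEIL3 was lower, at -2.49 without CoCl2 and -2.26 with it, and its relatives NEIL2 (1.55 and 1.52) and NEIL1 (1.19 and 1.11) were higher. In end joining, 0 were called without CoCl2, and with it PAXX (1.22) and NHEJ1 (1.09) were higher and XRCC4 (-1.19) was lower. Of 14 p53 target genes, RRM2B, a ribonucleotide reductase subunit used in DNA repair, was higher in Sp1-si cells (1.45 without and 1.62 with CoCl2). The list's median was 0.01 without and 0.07 with CoCl2. SESN1 was also called higher in Sp1-si cells with CoCl2, at 1.33. GADD45A was called higher after CoCl2 in Sp1-si cells, at 1.01.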

How the data were processed

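Total RNA of 4 conditions was hybridised to 4 Agilent single-colour arrays, 1 per condition. Intensities as written by Agilent Feature Extraction 10.5.1.1 were deposited by the authors, as processed signals after background subtraction and detrending per the file headers, with calls of outlier spots and of spots well above background, and were not normalized between arrays. A value table was also deposited by the authors, and its intensities are the processed signal times 1 constant per array, with the normalization not given in the sources used here. Grouping followed the sample labels.

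Outlier spots were left out, log2 signals had the 75th percentile of all non-control spots of their array subtracted, and values were averaged per probe. A probe counted as well above background where this call held for at least 50% of its spots. The brightest probe by mean signal stood for a gene, 9 members having several, and symbols were assigned through RefSeq accessions, found for 28463 of 29877 spots that have a RefSeq accession. Where 1 array of a pair was not well above background, a ratio is a bound that sets the dim array at the higher of its own signal and the lowest signal well above background on that array, and where neither was, none is given. Where the dim signal itself was the higher, as for XRCC2 in NS-si → CoCl2 cells, the value is the plain ratio and not a strict bound. A ratio is the difference of log2 values of 2 arrays, and a call needed a size of at least 1. The spot SD came from 264 probes with 10 spots, in 5 bins of signal, or from the member's own 10 spots.

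The members, the lists and the rule for named genes were chosen with earlier results of these data known. All 35 members are named, and values on every array are given for members past the call in any comparison and for the 3 highest and 3 lowest of each comparison. From each other list, at most 3 genes in each direction past the call are named. Alternatives were no scaling, median scaling, quantile normalization, the percentile taken over probes above background on each array, the value table, normexp on median signals with an offset of 50, retention of outlier spots, averaging of all probes of a gene, genes above background on all 4 arrays, a fold of 1.5 and, for promoters, the 250 bases before the start. The counting was tested on simulated data. Python 3.11.15, numpy 2.4.6, pandas 2.3.3, matplotlib 3.10.9, R 4.3.3 and limma 3.58.1 were used. The number of arrays limits the precision.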

Additional observations from a re-analysis of the deposited data

Results flagged for a closer look

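In 4 members the ratio after CoCl2 had opposite signs in NS-si and Sp1-si cells, each larger than 2 spot SDs. With 1 array per condition the difference between the kinds of cells was not tested. BARD1 went from -0.43 in NS-si to 0.17 in Sp1-si cells, a difference of 0.60 on the log2 scale, RAD51D from -0.22 to 0.23, a difference of 0.45, and ATM from -0.20 to 0.29, a difference of 0.49. FANCG went from 0.06 to -0.07, a difference of -0.14, which was above 0 without scaling and with median scaling. The second ATM probe gave -0.77 and -0.68, with no change of sign, whereas all 3 RAD51D probes changed sign. The RAD51D probes other than the brightest were dim, with signals from 13.7 to 48.5. With normexp the RAD51D ratio in Sp1-si cells fell to 0.04.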

How the results depend on the processing

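No paired analysis was possible because each condition has 1 array. Without scaling of the arrays, all genes shifted by a median of -0.22 (CoCl2 in NS-si cells), 0.22 (CoCl2 in Sp1-si cells), -0.06 (Sp1 silencing without CoCl2) and 0.37 (Sp1 silencing under CoCl2). The members' medians then became -0.66, -0.16, -0.19 and 0.31, the last a change of sign, and that of the difference of the CoCl2 ratios became 0.54. With median scaling, Sp1 silencing under CoCl2 also changed sign, to 0.0508, and CoCl2 in Sp1-si cells and the difference became -0.26 and 0.23. With the value table, the 4 medians were -0.51, -0.44, -0.0945 and -0.0242. With normexp, the CoCl2 medians were -0.33 (NS-si) and -0.32 (Sp1-si), Sp1 silencing under CoCl2 -0.13 and the difference 0.0327. The mean over all probes gave -0.49 for CoCl2 in NS-si cells and -0.0485 for Sp1 silencing under CoCl2. The percentile over probes above background on all 4 arrays gave -0.48 for CoCl2 in NS-si cells, genes above background on all 4 arrays -0.35 for CoCl2 in Sp1-si cells, and quantile normalization 0.14 for the difference. Without scaling and with median scaling the members' median kept its distance from that of all genes, at 0.08 for the difference, -0.38 for CoCl2 in Sp1-si cells and -0.06 for Sp1 silencing under CoCl2, so these moves and changes of sign were shifts of all genes. The cause of the moves with normexp and with the mean over all probes was not tested.

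At a fold of 1.5, members lower numbered 16, 13, 10 and 10 in the 4 comparisons in that order, and members higher 2 for CoCl2 in Sp1-si cells, 6 and 8 for Sp1 silencing without and under CoCl2, and 3 for the difference. With normexp, lower calls numbered 2 for CoCl2 in NS-si cells and 3 for each Sp1 silencing. Without scaling, 1 member was called higher for CoCl2 in Sp1-si cells and 3 for the difference, and Sp1 silencing under CoCl2 had 2 lower and 8 higher. Median scaling left 3 lower there, and the value table gave 4 lower for CoCl2 in Sp1-si cells. Members with E2F-type letters fell to 4 within the 250 bases before the start. Of 23 calls of single members, 23 were kept with outlier spots and with the value table, 22 with quantile normalization, 19 without scaling, and 15 of the 22 that normexp could give. FANCF and FANCL after CoCl2, and FANCC, FANCD2, FANCI and MSH6 after Sp1 silencing, kept their calls under every alternative run. Signal over background limited BRCA2, BRIP1 and XRCC2.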
